A study of Mus musculus with 19 samples.

Results

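Transcripts of 10 genes of the interleukin-1 (IL-1) family and the interleukin-10 (IL-10) receptor were examined in the mouse endometrium before mating and during the pre-implantation phase. The genes were the ligands Il1a, Il1b, Il18 and Il33, the antagonist Il1rn, the receptors Il1r1, Il1r2 and Il1rl1, and both chains of the IL-10 receptor, Il10ra and Il10rb. They were chosen by name and matched to the gene identifiers of the count table through the mouse GENCODE symbols of GRCm38, and all 10 were found among 49089 genes. All 19 libraries came from endometrium of wild-type C57Bl/6 females. The study says that it was scraped from the muscle layer, that samples were pooled, and that mated females were 8 to 14 weeks old. The CONT group (n = 3, replicates 1, 2 and 4) was estrous and virgin, collected in the peri-ovulatory phase. The INT group (n = 4) was collected after mating with intact Balb/c males, on day 3.5 post-coitum (pc). The SVX, SVX_VAS and VAS groups (n = 4 each) were collected on the same day, and their Balb/c mates had been operated on. For these 3 groups the column names and the sample titles give different operations (vasectomised, seminal vesicle-deficient, or both), so the column prefix is used as a name only and no operation is attached to it. Per the study's methods, virgin females were collected late in the evening of the day when proestrus was detected, and mated females at noon. Time of day therefore cannot be told apart from mating in comparisons of INT against CONT. The number of females in a pool is not given in the sources used here, and the p-values below measure the spread between pooled samples.

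IL-1α and IL-1β, encoded by Il1a and Il1b, bind the receptor encoded by Il1r1, which signals through MyD88 and NF-kappa B. Il1rn encodes an antagonist that occupies this receptor without a signal, and Il1r2 encodes a decoy receptor that binds the ligand without signalling. IL-18 and IL-33 are related ligands, and IL-33 acts through the ST2 receptor encoded by Il1rl1. IL-10 restrains macrophages and other leukocytes through a ligand-binding chain (Il10ra) and a chain shared with other cytokine receptors (Il10rb). In the uterus, IL-1 family cytokines are known from the epithelium and from leukocytes, and are studied for their part in the inflammatory response to mating and in implantation.

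Il1a and Il1b are neighbours on chromosome 2 and the results for them differ, so the bases before their starts are shown first. Their start sites lie 61167 bases apart and both genes are on the minus strand. The RefSeq promoter table (GRCm38.p6) matched 8 of the 10 members with 13 promoters, and the 250 bases before the start of each gene are printed 5′ to 3′ on the strand of the gene. Capitals mark matches to TGANTCA (AP-1) and to TTNCNNNAA (STAT).
Il1a, chr2:129309973-129310222, minus strand: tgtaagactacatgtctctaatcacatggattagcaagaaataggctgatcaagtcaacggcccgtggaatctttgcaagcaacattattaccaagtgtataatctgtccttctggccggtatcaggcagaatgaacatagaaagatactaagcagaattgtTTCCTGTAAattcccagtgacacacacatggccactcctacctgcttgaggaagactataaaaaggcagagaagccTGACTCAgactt
Il1b, chr2:129371140-129371389, minus strand: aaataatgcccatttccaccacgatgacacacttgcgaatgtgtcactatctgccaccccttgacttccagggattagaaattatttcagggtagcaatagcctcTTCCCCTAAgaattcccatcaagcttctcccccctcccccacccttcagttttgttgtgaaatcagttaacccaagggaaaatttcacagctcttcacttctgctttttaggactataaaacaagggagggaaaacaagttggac
The Il1a window held TGACTCA 12 bases before the start and TTCCTGTAA 88 bases before it, and the Il1b window held TTCCCCTAA 145 bases before the start and no AP-1 match. Both strands were searched, and matches of different motifs were counted separately where they overlapped. Of 32851 promoters in windows of 250 bases before to 50 after a start, 7.81% held TGANTCA and 36.6% held TTNCNNNAA. Neither window held the steroid receptor half-site TGTTCT, which 19% of promoters held, or the kappa B and estrogen receptor palindromes that were searched. These are matches of letters and no binding was measured here.

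Libraries held 12661266 to 31781270 counts, and levels are given as CPM, counts brought to a common library total, scaled by edgeR's TMM factors, with 3 counts worth 0.108 to 0.236 CPM. VAS replicates 2 and 3 stood apart: their correlation across genes with the other 17 libraries was 0.646 to 0.781, against 0.984 with each other, and 484 tested genes (2.81%) that averaged at least 3 CPM elsewhere had no count in either. INT replicate 1 and SVX_VAS replicate 2 also stood apart from the other mated libraries, with Ltf, an estrogen-responsive epithelial gene, at 2157 and 2301 CPM, inside the CONT range of 1875 to 2848 CPM. Where the call of a member in VAS depends on it, the value without replicates 2 and 3 is therefore also given. In INT and SVX_VAS the same holds for leaving out the other pair. The filter of at least 3 CPM in at least 3 libraries kept 17222 genes and 9 of the 10 members. Il1rn did not pass, and without VAS replicates 2 and 3 only 6 members would have passed, since Il1b, Il1r2 and Il1rl1 would not. Epithelial, stromal and endothelial markers were present in all libraries, and so were smooth muscle markers.

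**Figure D1:**
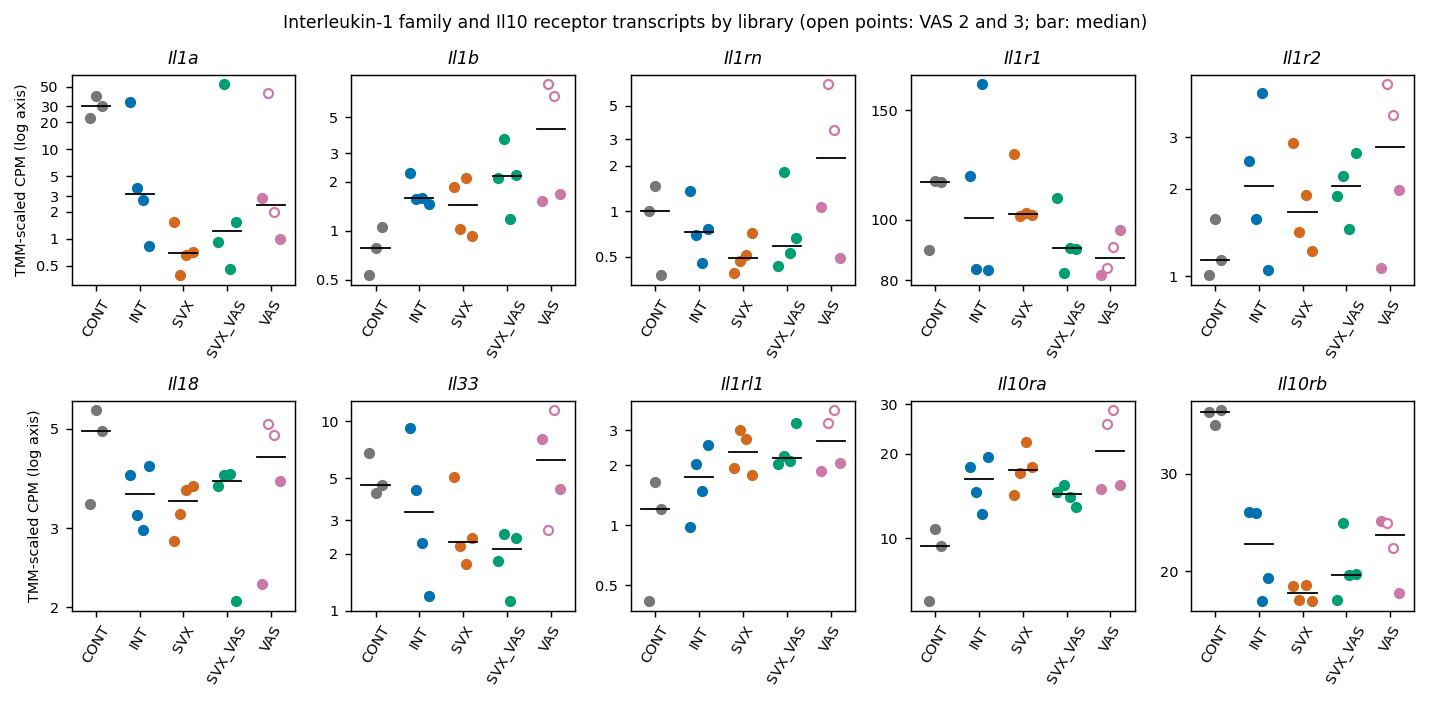
Level of each of the 10 members in each of the 19 libraries, as TMM-scaled CPM on a log axis, by group; each point is a library, open points are VAS replicates 2 and 3, and bars are group medians. Il10rb is lower in all 16 mated libraries than in any CONT library, and Il1a is high in CONT and in 1 library each of INT, SVX_VAS and VAS.

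The first comparison asked which members differed between the estrous endometrium and the endometrium on day 3.5 pc. Il10ra rose and Il10rb fell in each of the 4 mated groups against CONT, and these were the only members called in all 4. Il1rl1 rose in SVX, SVX_VAS and VAS, Il1b rose in SVX_VAS and VAS, and Il1a fell in SVX. Il1r1, Il1r2, Il18 and Il33 were not called in any group. A gene was called at a Benjamini-Hochberg false discovery rate (FDR) of at most 0.05 in edgeR's quasi-likelihood test over all tested genes and a change of at least 1.5-fold. In INT 2 of 9 tested members were called, beside 33.6% of all tested genes. In SVX 4 of 9 were called beside 41.6%, in SVX_VAS 4 of 9 beside 38.6%, and in VAS 4 of 9 beside 40.6%. These shares are near those of all genes, so that the number of members called says nothing particular about the family. Libraries did not overlap with CONT for 3 members in INT beside 62.3% of all genes, for 4 in SVX beside 70.9%, for 5 in SVX_VAS beside 67.5%, and for 4 in VAS beside 55.0%. The median log2 fold change (logFC) of the tested members was 0.08 in INT, 0.02 in SVX, -0.20 in SVX_VAS and 0.35 in VAS, and that of all tested genes was -0.01, -0.01, -0.02 and -0.07. The 4 comparisons share the CONT libraries.

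**Figure D2:**
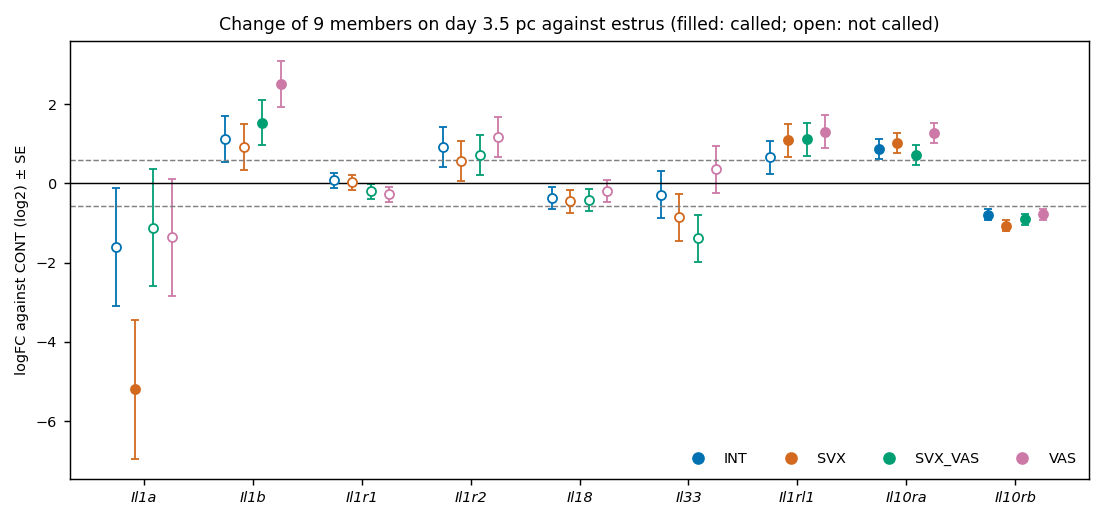
Log2 fold change against CONT of the 9 tested members in INT, SVX, SVX_VAS and VAS, with error bars of 1 SE from edgeR; filled points passed the FDR and fold cutoffs, and dashed lines mark a change of 1.5-fold. Il10ra lies above 0 and Il10rb below 0 in all 4 groups, and the error bars of Il1a are the widest.

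Il1a (ENSMUSG00000027399.1, chr2:129299610-129309972, minus strand), which encodes the IL-1α alarmin made by epithelium among other cells, was the member with the widest range. Its level in CONT replicates 1, 2 and 4 was 22.2, 39.2 and 30.5 CPM. In INT replicates 1 to 4 it was 33.3, 3.66, 2.74 and 0.840 CPM. In SVX it was 1.56, 0.393, 0.658 and 0.716 CPM, and all 4 libraries lay below every CONT library. In SVX_VAS it was 0.918, 53.3, 0.461 and 1.54 CPM. In VAS it was 2.82, 41.9, 1.98 and 0.988 CPM. One library in each of INT, SVX_VAS and VAS thus reached or passed the CONT range, whereas the other 13 mated libraries were at 0.393 to 3.66 CPM. Il1a fell in SVX by 5.19 on the log2 scale (SE 1.76, edgeR FDR = 0.0185), from a mean of 30.6 ± 8.53 (SD, n = 3) to 0.831 ± 0.504 CPM (SD, n = 4). The logFC was -1.60 in INT (SE 1.49, edgeR FDR = 0.404), -1.12 in SVX_VAS (FDR = 0.557) and -1.36 in VAS (FDR = 0.441). The calls in SVX_VAS and VAS turned on single libraries: without SVX_VAS replicate 2 Il1a fell in SVX_VAS by 4.98 (FDR = 0.0119), and without VAS replicate 2 it fell in VAS by 3.95 (FDR = 0.0462). Without both VAS replicates 2 and 3 the VAS value was -3.95 and was not called (FDR = 0.0941). In INT the logFC was -3.66 without INT replicate 1 and was not called (FDR = 0.0796). With SVX_VAS replicate 2 left out as well, a setting chosen after seeing the data, it was -3.66 with an FDR of 0.0175. Under that setting the SVX_VAS value was -4.98 (FDR = 0.00416). With limma-voom the call in SVX was lost (FDR = 0.0820) and Il1a was called in INT (-2.98, FDR = 0.0219), SVX_VAS (-3.50, FDR = 0.0233) and VAS (-2.70, FDR = 0.0184). Its counts share 222 exon bases, 11.2% of its exons, with Gm14023 on the opposite strand, and whether counting used the strand is not given in the sources used here. Gm14023 was at 12.3 CPM in INT replicate 1 and 19.8 CPM in SVX_VAS replicate 2, against 9.99 to 14.1 CPM in CONT, but at 0.933 CPM in VAS replicate 2, where Il1a was at 41.9 CPM.

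Il1b (chr2:129364570-129371139, minus strand), encoding the IL-1β that activated macrophages and neutrophils release, was low in all libraries, with its lowest mean in CONT. It was at 0.535, 0.790 and 1.06 CPM in CONT and at 2.27, 1.58, 1.60 and 1.47 CPM in INT. In SVX it was at 1.87, 1.02, 2.12 and 0.931 CPM, in SVX_VAS at 2.13, 3.66, 1.19 and 2.21 CPM, and in VAS at 1.52, 7.98, 6.77 and 1.69 CPM. Every library of INT, SVX_VAS and VAS lay above every CONT library, and the SVX libraries overlapped with CONT. The rise was 1.53 in SVX_VAS (SE 0.58, edgeR FDR = 0.0341) and 2.50 in VAS (SE 0.59, FDR = 0.00192) on the log2 scale, whereas the logFC was 1.12 in INT (FDR = 0.123) and 0.91 in SVX (FDR = 0.198). Without VAS replicates 2 and 3 the VAS value was 1.05 and not called (FDR = 0.0673), whereas Il1b passed in INT (1.15, FDR = 0.0211), SVX (0.94, FDR = 0.0494) and SVX_VAS (1.58, FDR = 0.00255). These fits kept Il1b through a filter that it met only with VAS replicates 2 and 3, and with the filter applied to the other 17 libraries it was not tested. When only the groups compared were fitted, the INT value was also called (1.13, FDR = 0.0149). In SVX_VAS the call was also lost without CONT replicate 1 (1.32, FDR = 0.124), without CONT replicate 2 (1.53, FDR = 0.0838), without SVX_VAS replicate 2 (1.21, FDR = 0.0991) and with limma-voom (FDR = 0.167). It was lost as well with a replicate block (1.46, FDR = 0.0577) and without a filter (1.52, FDR = 0.0508). Without both INT replicate 1 and SVX_VAS replicate 2 it was 1.21 and not called (FDR = 0.107). The neutrophil markers summed to 57.3 and 73.8 CPM in VAS replicates 2 and 3, to 14.7 to 16.7 CPM in CONT and to 9.36 to 27.1 CPM in the other mated libraries, and among them Mmp8 had no count in 12 of the 19 libraries. The genes of this list moved in opposite directions: Csf3r rose in all 4 mated groups, from a mean of 2.35 CPM in CONT to 22.0 CPM in VAS, and Ly6g fell in all 4, from 9.22 to 1.48 CPM in VAS. Their part in the Il1b values was not tested.

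Il1rn (chr2:24336853-24351494), the receptor antagonist, was the member that the filter left out, and its levels were 0.379 to 1.47 CPM in CONT, 0.456 to 1.36 CPM in INT, 0.389 to 0.716 CPM in SVX and 0.435 to 1.83 CPM in SVX_VAS. In VAS it was at 1.07, 6.95, 3.43 and 0.494 CPM, so that replicates 2 and 3 were above all other libraries. With the filter lowered to 1 CPM, its logFC against CONT was -0.33 in INT (edgeR FDR = 0.763), -0.94 in SVX (FDR = 0.328), -0.23 in SVX_VAS (FDR = 0.83) and 1.58 in VAS (FDR = 0.0741). Il18 (chr9:50575273-50581837), a cytokine that activates T and natural killer (NK) cells, ranged from 2.06 to 5.49 CPM over all libraries and overlapped between all groups. Its mean was 4.60 ± 1.09 in CONT (SD, n = 3) and 3.35 ± 0.428 to 4.01 ± 1.30 CPM in the mated groups (SD, n = 4 each). Il33 (chr19:29925114-29960718), an alarmin stored in the nucleus, was at 6.78, 4.20 and 4.62 CPM in CONT. It was at 9.23, 4.35, 2.28 and 1.19 CPM in INT, at 5.06, 2.20, 1.76 and 2.44 CPM in SVX, at 1.84, 2.55, 1.12 and 2.43 CPM in SVX_VAS, and at 8.06, 2.66, 11.4 and 4.38 CPM in VAS. The SVX_VAS libraries were below all CONT libraries, with a logFC of -1.39 (SE 0.60) that missed the cutoff (edgeR FDR = 0.0603). It passed without VAS replicates 2 and 3 (-1.35, FDR = 0.0411), with DESeq2 (-1.38, FDR = 0.0456) and when only the groups compared were fitted (-1.38, FDR = 0.00465). It also passed without INT replicate 1 and SVX_VAS replicate 2 (-1.53, FDR = 0.0379), a setting chosen after seeing the data.

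Il1r1 (chr1:40225080-40317257), the signalling IL-1 receptor, had the highest mean level of the members in CONT and over the mated libraries. It was at 89.6 to 115 CPM in CONT, 83.2 to 165 CPM in INT, 102 to 127 CPM in SVX, 82.0 to 108 CPM in SVX_VAS and 81.5 to 96.3 CPM in VAS. The groups overlapped, and the logFC against CONT was 0.08 in INT (95% interval -0.30 to 0.45), 0.02 in SVX (-0.36 to 0.40), -0.20 in SVX_VAS (-0.58 to 0.17) and -0.28 in VAS (-0.66 to 0.10). Il1r2 (chr1:40074079-40125231), the decoy receptor, was at 1.01, 1.58 and 1.14 CPM in CONT and at 1.05 to 4.57 CPM in the mated libraries. Its mean was higher in every mated group than in CONT, but it was not called in any of them. The largest logFC was 1.16 in VAS (SE 0.51, edgeR FDR = 0.0607), which DESeq2 called (FDR = 0.0461). It was 1.43 without VAS replicate 1 (FDR = 0.0154) and 0.28 without VAS replicates 2 and 3 (FDR = 0.682).

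Il1rl1 (chr1:40429570-40465415), the IL-33 receptor found on mast cells, type 2 lymphoid cells and regulatory T cells, was low. It was at 0.416, 1.65 and 1.21 CPM in CONT and 0.983, 2.02, 1.48 and 2.52 CPM in INT. It was at 1.95, 2.99, 2.71 and 1.79 CPM in SVX, at 2.03, 2.22, 2.11 and 3.24 CPM in SVX_VAS and at 1.86, 3.27, 3.76 and 2.05 CPM in VAS. All libraries of these 3 groups lay above the CONT libraries, and those of INT overlapped with them. The rise was 1.08 in SVX (SE 0.42, edgeR FDR = 0.0369), 1.11 in SVX_VAS (SE 0.42, FDR = 0.0351) and 1.30 in VAS (SE 0.42, FDR = 0.0144) on the log2 scale, and the INT value was 0.66 (FDR = 0.213). Without VAS replicates 2 and 3, where its level was highest, Il1rl1 would not have passed the filter on low counts. All 3 calls were lost without CONT replicate 1, the library with the lowest value (SVX 0.70, FDR = 0.161; SVX_VAS 0.73, FDR = 0.155; VAS 0.92, FDR = 0.0691). The VAS call was lost without VAS replicates 2 and 3 (0.82, FDR = 0.138) and when only the groups compared were fitted (1.32, FDR = 0.107), and the SVX and SVX_VAS calls with limma-voom (FDR = 0.0582 and 0.0514), without a filter (FDR = 0.0615 and 0.0567) and without CONT replicate 4 (FDR = 0.0662 and 0.0647). The SVX call was also lost without SVX replicate 2 (FDR = 0.0895) or 3 (FDR = 0.0757), and the SVX_VAS call without SVX_VAS replicate 4 (FDR = 0.0907). The mast cell marker list summed to 17.9 to 22.8 CPM in CONT and 45.7 to 81.9 CPM in mated libraries. Kit, which other cells also express, made up most of it (a mean of 20.4 CPM in CONT) and rose in all 4 groups, but the defining genes were near 0, with Cpa3 at 0.933 CPM or less, no Tpsab1 count in 15 libraries and no Ms4a2 count in 17.

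Il10ra (chr9:45253837-45269149, minus strand), the ligand-binding chain that leukocytes carry, was at 5.94, 10.8 and 9.40 CPM in CONT. It was at 17.8, 14.6, 12.2 and 19.4 CPM in INT, at 14.2, 17, 22.0 and 17.9 CPM in SVX, at 14.6, 15.4, 14 and 12.9 CPM in SVX_VAS and at 15.0, 25.5, 28.5 and 15.5 CPM in VAS. No mated library fell into the CONT range. The rise was 0.87 in INT (SE 0.25, edgeR FDR = 0.00969), 1.03 in SVX (SE 0.26, FDR = 0.00266), 0.70 in SVX_VAS (SE 0.25, FDR = 0.0269) and 1.28 in VAS (SE 0.26, FDR = 0.000579) on the log2 scale. Without CONT replicate 1 the INT and SVX_VAS values were 0.66 and 0.49 and were not called (FDR = 0.0616 and 0.145). In SVX_VAS the call was also lost without replicate 1 (0.69, FDR = 0.0504) or replicate 2 (0.66, FDR = 0.0534) of that group. It was lost as well without INT replicate 1 and SVX_VAS replicate 2 together (0.66, FDR = 0.0605), a setting chosen after seeing the data. Without VAS replicates 2 and 3 the VAS value was 0.83 (FDR = 0.00932). Lists of leukocyte markers moved in both directions. The T and NK cell list summed to 17 to 29.1 CPM in CONT and 36.6 to 64.2 CPM in mated libraries, whereas the eosinophil list went from 19.7 to 24.0 CPM in CONT to 2.83 to 10.2 CPM and the B cell list from 7.25 to 10.4 CPM to 1.40 to 5.04 CPM. Single genes made up most of these last sums in CONT, Il5ra with a mean of 19.8 CPM (1.55 in INT) and Cd79b with 7.72 CPM (2.28 in INT), while the eosinophil gene Ccr3 had a logFC of 0.25 to 0.93 and was not called. In the T and NK cell list, Foxp3 had the mean of 10.6 CPM in CONT and 11.6 CPM in INT, and was not called in INT, SVX or SVX_VAS. The macrophage list overlapped, at 223 to 336 CPM in CONT and 290 to 428 CPM in mated libraries, and its genes moved in both directions. Adgre1, Csf1r, Mertk, C1qa and C1qb rose in all 4 mated groups and Mrc1 in SVX, whereas Cd68 fell in all 4 and Cd14 in SVX and VAS. In bulk tissue, more cells of a type and more RNA per cell cannot be told apart, and the part of these cells in the Il10ra values was not tested.

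Il10rb (chr16:91406164-91425834), the shared chain, which also serves the receptors for IL-22 and the lambda interferons, was at 38.8, 36.8 and 39.1 CPM in CONT. It was at 25.6, 25.5, 17.6 and 19.4 CPM in INT, at 18.8, 17.7, 18.9 and 17.6 CPM in SVX, at 17.7, 24.5, 19.6 and 19.8 CPM in SVX_VAS and at 24.6, 24.4, 22.0 and 18.2 CPM in VAS. The CONT libraries lay close together, with a mean of 38.3 ± 1.24 CPM (SD, n = 3), and all 16 mated libraries lay well below them. It fell by 0.80 in INT (SE 0.14, edgeR FDR = 0.00024), by 1.07 in SVX (SE 0.14, FDR = 1.25e-05), by 0.91 in SVX_VAS (SE 0.14, FDR = 6.48e-05) and by 0.78 in VAS (SE 0.14, FDR = 0.000228) on the log2 scale. These calls stayed under every alternative that was run. Epithelial markers moved the same way, summing to 4155 to 5558 CPM in CONT and 563 to 2727 CPM in mated libraries, although Cldn3 among them was not called in any group. The sum of the gland epithelium list went the other way, from 24.4 to 37.9 CPM in CONT to 88.6 to 574 CPM. Its genes did not all do so. Aldh1a1 had a logFC of -0.25 in INT, -0.26 in SVX and -1.12 in SVX_VAS and was not called there. Prss29 was not called in INT or SVX_VAS, and Prss28 was not called in SVX_VAS. The part of these cells in the Il10rb values was not tested. The exons of Il10rb share 569 bases (14.9%) with Gm21970 on the same strand, which had no count in any library.

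**Figure D3:**
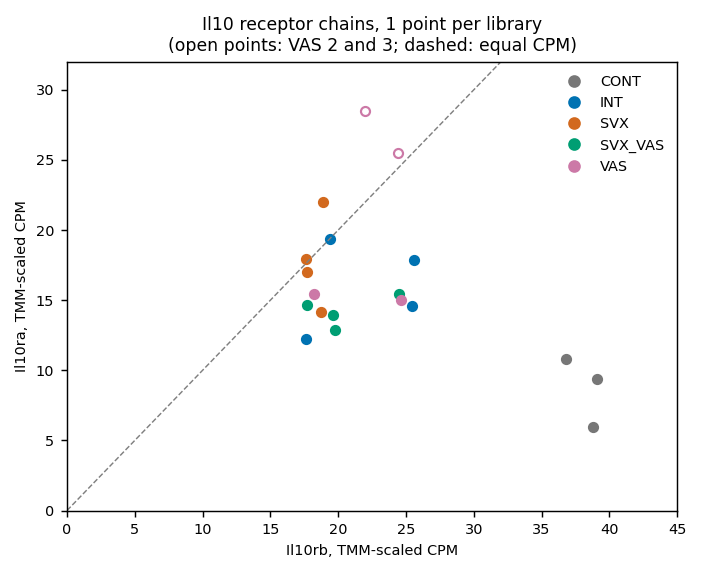
Il10ra against Il10rb, both as TMM-scaled CPM on linear axes; each point is a library, coloured by group, open points are VAS replicates 2 and 3, and the dashed line marks equal CPM. The log2 ratio of Il10ra to Il10rb lies between -2.69 and -1.76 in CONT, at the lower right, and between -0.80 and 0.37 in the mated libraries.

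With one chain higher and the other lower, the ratio of Il10ra to Il10rb separated CONT from all mated libraries. Its mean on the log2 scale was -2.16 ± 0.47 in CONT (SD, n = 3), -0.46 ± 0.33 in INT, -0.05 ± 0.26 in SVX, -0.51 ± 0.17 in SVX_VAS and -0.13 ± 0.46 in VAS (SD, n = 4 each). The differences from CONT were 1.70, 2.11, 1.65 and 2.04, each with a two-sided exact permutation p = 0.0571, the smallest that 3 against 4 libraries allow, and an adjusted p of 0.25 over 35 such tests. The design could not reach 0.05 for these values. Ratios of 4 other pairs were compared in the same way: Il1rn to Il1b, Il1rn to Il1a, Il1r2 to Il1r1 and Il1rl1 to Il33. Those without overlap with CONT were Il1rn to Il1a in SVX (difference 4.53) and in VAS (3.99), Il1r2 to Il1r1 in SVX_VAS (0.87) and Il1rl1 to Il33 in SVX_VAS (2.59), each at that smallest p. The ratio of antagonist to Il1b overlapped with CONT in every group, with group means of 0.12 in CONT and -1.41 to -0.81 in the mated groups.

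Levels per kilobase of exon allow the members to be ordered within a group. In CONT, the mean was 16.8 ± 2.32 CPM per kilobase for Il1r1 and 15.5 ± 4.32 for Il1a, which did not differ beyond their spread, then 10.05 ± 0.327 for Il10rb and 6.45 ± 1.53 for Il18 (SD, n = 3). Il10ra followed at 2.49 ± 0.715 and Il33 at 1.80 ± 0.479, whose spreads met, and then Il1r2 at 0.651 ± 0.157 and Il1b at 0.417 ± 0.138, whose spreads also met. Il1rn at 0.172 ± 0.0991 and Il1rl1 at 0.159 ± 0.0908 were lowest and did not differ beyond their spread. Over the 16 mated libraries the means of Il10rb, Il18 and Il10ra lay close together at 5.45, 5.02 and 4.94 CPM per kilobase, below Il1r1 at 15.8. Il1a had a mean of 4.68 but a median of 0.786 CPM per kilobase there, since 3 libraries carried most of it.

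The second comparison asked whether the members differed between mated groups. None of the 9 tested members was called in SVX, SVX_VAS or VAS against INT, and 0% of all tested genes were called in each of these 3 comparisons. Nor was a member called in the test of any difference among the 4 mated groups, where 0% of all tested genes passed. At an unadjusted p under 0.05, edgeR listed 749 genes in SVX, 339 in SVX_VAS and 1831 in VAS against INT and 1213 among the 4 mated groups, with 1, 0, 1 and 2 members among them. DESeq2 called 3, 2, 0 and 21 genes and limma-voom 0, 0, 1663 and 1396. These members were Il1a in SVX (logFC against INT -3.59, edgeR FDR = 0.9997), Il1b in VAS (1.38, edgeR FDR = 0.452, and -0.10 without VAS replicates 2 and 3), and Il1b and Il33 among the mated groups, where the lowest edgeR FDR of any member was 0.635. Il1b against INT was called only without VAS replicate 1 (1.67, edgeR FDR = 0.0468), where VAS replicates 2 and 3 made up most of the group and 578 genes were called. No other setting that was run called a member in a comparison with INT. For Il10rb the logFC against INT was -0.27 in SVX, -0.11 in SVX_VAS and 0.02 in VAS. A p that misses the cutoff does not show that the groups are alike.

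Among other genes of the same pathways, a list of 71 was examined, and 55 passed the filter. With the filter applied to the 17 libraries other than VAS replicates 2 and 3, 52 passed. Against CONT, 5 rose and 14 fell in INT, where 3599 of 17222 tested genes rose and 2192 fell. In SVX 7 rose and 19 fell, beside 3985 and 3178 of all tested genes, in SVX_VAS 6 and 14, beside 3820 and 2835, and in VAS 6 and 13, beside 4006 and 2979. The number called in the list was near the background in INT (19 of 55 beside 33.6%), SVX (26 beside 41.6%), SVX_VAS (20 beside 38.6%) and VAS (19 beside 40.6%). The median logFC of the list was -0.22, -0.35, -0.20 and -0.15. The largest rise in INT among called genes was that of Icam1, an adhesion molecule for leukocytes induced by IL-1, from 7.24 to 29.7 CPM (2.03 ± 0.28 SE, edgeR FDR = 3.12e-05). Nlrp1b, an inflammasome sensor, rose from 2.74 to 9.53 CPM (1.79, FDR = 0.000107) and Relb, an NF-kappa B subunit, from 7.11 to 13.8 CPM (0.95, FDR = 0.00108). Among called genes, the largest falls in INT were those of Nlrp6, another sensor, from 12.1 to 3.57 CPM (-1.77, FDR = 0.0256), of Il18rap, an IL-18 receptor chain, from 29.1 to 10.8 CPM (-1.43, FDR = 0.0224), and of Irak2, a kinase of the IL-1 receptor complex, from 61.2 to 26.3 CPM (-1.22, FDR = 0.00482).

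**Figure D4:**
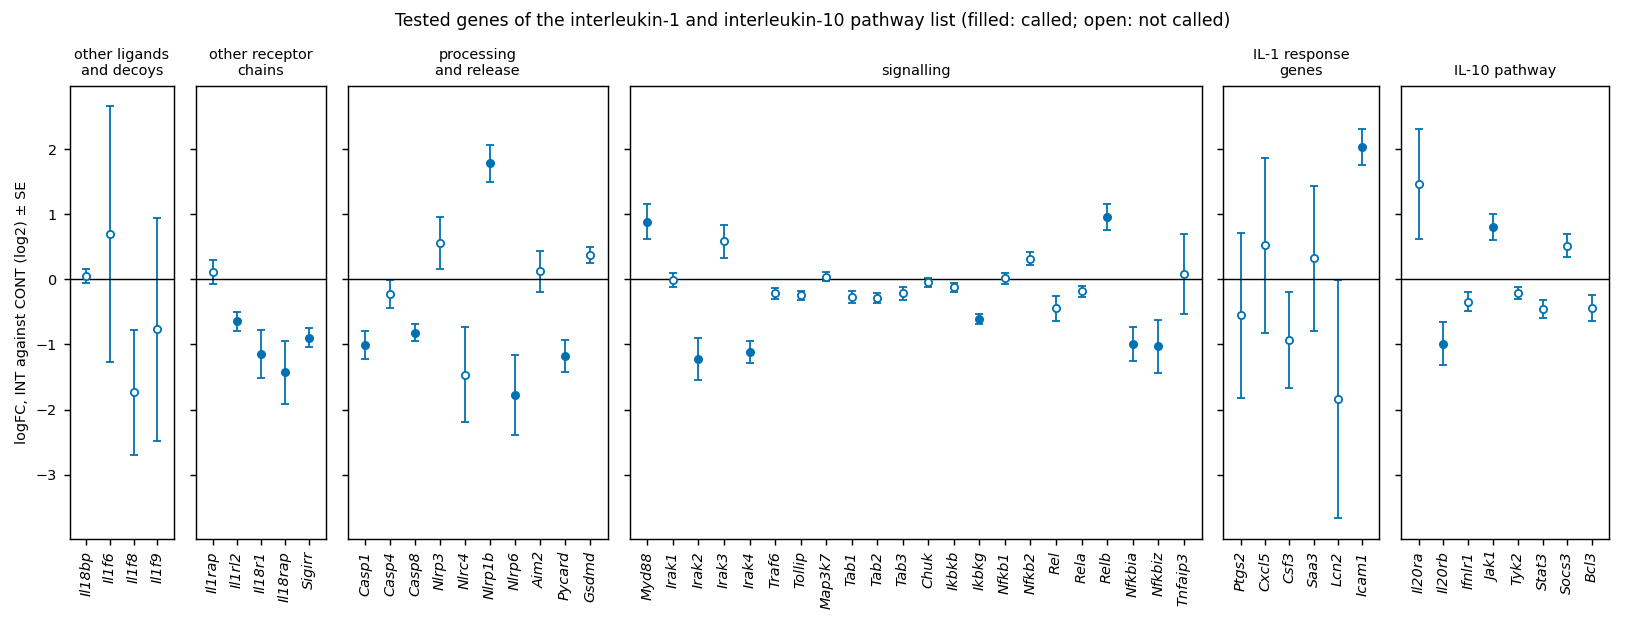
Log2 fold change in INT against CONT of the 55 tested genes of the pathway list, by role, with error bars of 1 SE from edgeR; filled points passed the FDR and fold cutoffs. Of the receptor chains 4 of 5 lie below 0 and were called, where 33.6% of all tested genes were called in either direction, and Icam1 has the largest called rise at 2.03.

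Of 5 other receptor chains tested, Il1rl2 (the IL-36 receptor), Il18r1, Il18rap and Sigirr, an inhibitory receptor, fell in INT, SVX and SVX_VAS, and all but Il1rl2 fell in VAS, where Il1rl2 was called only without VAS replicates 2 and 3 (-0.65, edgeR FDR = 0.00822). Il1rap, the accessory chain that Il1r1 and Il1rl1 share, was not called in any group. Of 10 genes of processing and release, Casp1, which cleaves the precursors of IL-1β and IL-18, Casp8, Pycard and Nlrp6 fell and Nlrp1b rose in all 4 groups, with Casp1 at -1.0 in INT, -1.53 in SVX, -1.20 in SVX_VAS and -1.04 in VAS. Nlrc4, another sensor, fell in SVX (-3.11) and SVX_VAS (-2.09), and was called in VAS only without VAS replicates 2 and 3 (-2.14, edgeR FDR = 0.0451). Nlrp3 rose in VAS (1.14, edgeR FDR = 0.0223) but not without VAS replicates 2 and 3 (0.24, FDR = 0.561). Of 22 signalling genes, Irak2, Irak4, Ikbkg and Nfkbia fell and Relb rose in all 4 groups, while Myd88, the adaptor of the receptors, rose in INT (0.88), SVX (1.23) and SVX_VAS (1.18). Nfkbiz fell in INT (-1.03), SVX (-1.51) and VAS (-1.07), and Irak3, an inhibitory member of the kinase family, rose in SVX (0.95), SVX_VAS (0.68) and VAS (0.97, and 0.55 and not called without VAS replicates 2 and 3). Of 4 tested ligands and decoys, the IL-36 ligands Il1f8 and Il1f9 fell in SVX, from 19 to 1.45 CPM and from 4.33 to 0.0389 CPM, the last below the level of 3 counts. Of 6 tested IL-1 response genes, Icam1 rose in every mated group, and Lcn2, which also responds to estrogen, and Csf3 fell in SVX. Endothelial markers were also higher, summing to 170 to 250 CPM in CONT and 546 to 1082 CPM in mated libraries. Their part in the Icam1 values was not tested. Cxcl5, a chemokine for neutrophils, rose in VAS by 3.57 (edgeR FDR = 0.0429), with 30.9 and 13.4 CPM in replicates 2 and 3 and 1.06 and 0.912 CPM in replicates 1 and 4. Without replicates 2 and 3 it was 0.03 (FDR = 0.989), and outside VAS it was at 27.9 CPM in SVX_VAS replicate 2 and at 3.46 CPM or less in the other libraries. Cxcl5 met the filter on low counts only with VAS replicates 2 and 3, so its FDR in VAS is no separate support for the rise. Of 8 genes of the IL-10 pathway, Jak1, the kinase on the ligand-binding chain, rose in INT (0.80), SVX (0.95) and SVX_VAS (0.86), and Il20rb fell in these groups. Socs3, a feedback inhibitor of cytokine signalling, rose in SVX (0.72), and Stat3, which IL-10 activates, fell in VAS (-0.80, and -0.54 and not called without VAS replicates 2 and 3). Jak1 was called in VAS only without those replicates (0.65). Il10 did not pass the filter, and its mean was 0.107 to 0.276 CPM over the groups, near the level of 3 counts.

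Genes most like each member over the 19 libraries were found by Pearson's r of the log2 CPM values, as a description. Il10ra was most like Lair1 (r = 0.971), Ncf1 (0.970) and Cybb (0.966), and without VAS replicates 2 and 3 like Ncf1 (0.962), Cybb (0.959) and Cd300a (0.957). Il10rb was most like Arrdc1 (0.990), Hivep1 (0.990) and Tmem102 (0.988), Il1a like Upk3bl (0.969), Lpo (0.968) and Nabp1 (0.968), and Il1b like Csf3r (0.876), Tubgcp5 (0.866) and Gm44164 (0.863). Without VAS replicates 2 and 3 the gene most like Il1a was Gm14023 (0.978), with which its exons overlap, and Csf3r was not among the 3 most like Il1b. Among the members themselves, Il1a was most like Il10rb (0.801), Il10ra like Il1rl1 (0.780) and Il1b like Il1r2 (0.758). The best match of Il1r1 was Il1r2, at 0.325 over all libraries and 0.617 without VAS replicates 2 and 3.

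Because Il1a was high in INT replicate 1 and SVX_VAS replicate 2, the mated libraries with the most Ltf, each member was set against the median log2 CPM of a list of 6 estrogen-responsive genes (Ltf, C3, Muc1, Lcn2, Clca1 and Padi1) over the 16 mated libraries, a relation chosen after seeing the data. The list was at 11 to 11.5 in CONT, at 10.8 in INT replicate 1, at 10.5 in SVX_VAS replicate 2 and at 4.29 to 9.26 in the other mated libraries. Il10rb had r = 0.917 (permutation p = 3e-05, adjusted 0.0003 over 10 relations) and Spearman's rho = 0.856 (p = 5e-05, adjusted 0.0005). Without INT replicate 1 and SVX_VAS replicate 2, the libraries farthest from the median, r was 0.901 (n = 14), and for deviations from the group means it was 0.923 (n = 16). For Il1a, whose values prompted this relation and which therefore has no test, r was 0.819, rho was 0.721, and r was 0.642 without those libraries. The adjusted p-values of the other members still counted Il1a among the 10 relations. Il10rb was the member most like Il1a (r = 0.801 over the 19 libraries), so its p is not independent of the values that prompted the relation. VAS replicate 2 had much Il1a (41.9 CPM) with 222 CPM of Ltf, whereas VAS replicate 1 and INT replicate 2 had 2.82 and 3.66 CPM of Il1a with 713 and 643 CPM of Ltf. Among all tested genes, 1.79% had an r at least as large in size as that of Il10rb and 6.5% as that of Il1a. Where the list came nearest to its CONT level, Il10rb stayed below its own CONT range. It was at 25.6 and 24.5 CPM in INT replicate 1 and SVX_VAS replicate 2, against 36.8 to 39.1 CPM in CONT. Il10ra had r = 0.00472 and Il1r1 r = -0.333 (permutation p = 0.986 and 0.211). Without VAS replicates 2 and 3 (n = 14), r was 0.939 for Il10rb and 0.870 for Il1a. For Il1rn r was 0.511 over 16 libraries (adjusted permutation p = 0.0887) and rho was 0.650 (adjusted permutation p = 0.0197). Over these 14 its r was 0.819 (adjusted permutation p = 0.00243), and it was 0.599 with INT replicate 1 and SVX_VAS replicate 2 also left out. For Il33 r was 0.564 over 16 (adjusted permutation p = 0.0767), rho was 0.650 (adjusted permutation p = 0.0197), and r over 14 was 0.667 (adjusted permutation p = 0.0244). An r as large in size was common among all tested genes, with 30.5% over 16 and 13.1% over 14 libraries for Il1rn, and 25.7% and 30.6% for Il33. Of the mated libraries, 8 lay together at 4.29 to 4.53 on the list. Over the other 8, at 5.96 to 10.8, Il10rb had r = 0.796 and rho = 0.905, and Il1a had r = 0.667 and rho = 0.738. Il10rb and Il1a had the largest r over all 16 mated libraries, so these values on part of the same libraries are no separate test. Both measures of a point come from the same library.

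**Figure D5:**
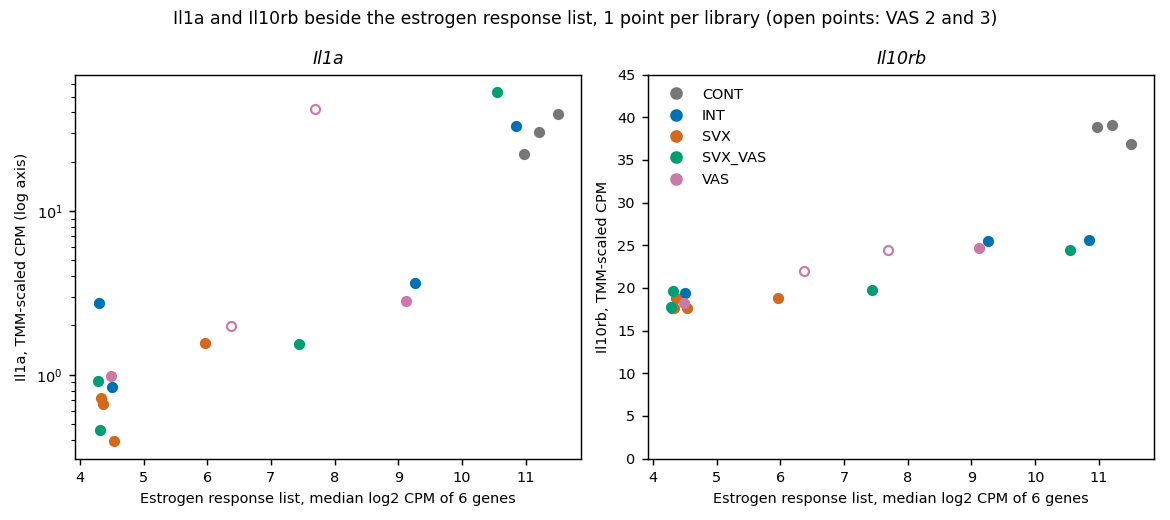
Il1a (TMM-scaled CPM, log axis) and Il10rb (TMM-scaled CPM, linear axis) against the median log2 CPM of the 6 estrogen-responsive genes; each point is a library, coloured by group, and open points are VAS replicates 2 and 3. Il1a and Il10rb are higher where the list is higher, and Il10rb in the mated libraries stays below its CONT level.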

How the data were processed

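Total RNA of 19 endometrium samples was sequenced (TruSeq Stranded libraries, paired ends). Per the study's methods and the submitters' processing notes, the authors trimmed reads with AdapterRemoval, aligned them with STAR to GRCm38 (mm10) and deposited raw counts per gene from featureCounts. The versions of STAR and featureCounts and the strand setting are not given in the sources used here. Counts were used as deposited. One edgeR 4.0.16 quasi-likelihood model (R 4.3.3, limma 3.58.1, TMM factors) was fitted to all 5 groups on 17222 genes that reached 3 CPM in 3 libraries or more. Genes were called at a Benjamini-Hochberg FDR of at most 0.05 and an absolute log2 fold change of at least 0.583, and the SE was the absolute logFC over the square root of F. Each member was compared in each mated group against CONT and against INT, and among mated groups. Ratios of CPM used a pseudocount of 0.1 CPM and two-sided exact permutation tests. Relations used permutation tests with 100000 resamples. Members are all named, and from the pathway list the 3 largest rises and falls called in INT against CONT. Other called genes of its sublists were named after their values were seen. The members and gene lists were chosen with earlier results of these data known. Tested on simulated data for INT against CONT (17222 genes, of which 200 were changed), the model found 57.1% of genes changed by 1 and 82.6% of genes changed by 2 on the log2 scale. In the data 33.6% of genes were called in this comparison, so these shares do not give the power of the tests above. Alternatives were DESeq2 1.42.0, its size factors, limma-voom, other filters, no fold cutoff, only the groups compared, a replicate block, other pseudocounts (0.5 and 1) and libraries left out. Promoters were searched with Python 3.11.15.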

Additional observations from a re-analysis of the deposited data

Results flagged for a closer look

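Over the 10 members and their 5 ratios, 60 groups of 4 values were examined for a single value whose gap to its nearest neighbour exceeded Dixon's 95% limit. This found 8, where chance gives about 1 in 20, or 3. Il1a was at 33.3 CPM in INT replicate 1 against 0.840 to 3.66 CPM in the others, at 53.3 CPM in SVX_VAS replicate 2 against 0.461 to 1.54 CPM, and at 41.9 CPM in VAS replicate 2 against 0.988 to 2.82 CPM. Il1b was at 2.27 CPM in INT replicate 1 against 1.47 to 1.60 CPM, and Il1rn at 1.83 CPM in SVX_VAS replicate 2 against 0.435 to 0.662 CPM. Il1r1 was at 127 CPM in SVX replicate 1 against 102 to 103 CPM. In SVX_VAS replicate 4, Il18 was low at 2.06 CPM against 3.72 to 3.96 CPM, and Il1rl1 was high at 3.24 CPM against 2.03 to 2.22 CPM. Of these 8 values, 4 were in INT replicate 1 and SVX_VAS replicate 2, the mated libraries with the most Ltf. The causes were not tested.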

How the results depend on the processing

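No called value changed sign. Of the alternative values of single members, 1096 kept their sign and their side of the cutoff, 28 lost a call, 18 gained one and 43 changed sign without a call in either fit. The ratio tests could not pass the cutoff and say nothing about stability. Of 9 tested members, 4 were called in SVX against CONT, beside 41.6% of all tested genes, and 2 with limma-voom, beside 42.3%. In VAS against CONT 4 were called (beside 40.6%), and 2 without VAS replicates 2 and 3 (beside 36.2%). The latter setting called 3 in INT (beside 38.1%), 5 in SVX (beside 46.0%) and 5 in SVX_VAS (beside 43.0%). With the filter applied to the other 17 libraries, a setting chosen after seeing the data, 2 of 6 tested members were called in VAS (beside 36.3%). In SVX_VAS 4 of 9 were called (beside 38.6%), and 2 of 10 without a filter (beside 23.0%). Leaving out 1 library at a time gave 1 to 2 called members in INT, beside 28.6% to 36.4% of all tested genes. The 1 was without CONT replicate 1 (beside 28.6%). In SVX it gave 3 to 4 (beside 37.6% to 42.5%) and in VAS 3 to 5 (beside 35.8% to 47.9%). In SVX_VAS it gave 1 to 4 (beside 33.5% to 39.9%), with 1 without CONT replicate 1 (beside 33.5%). In VAS against INT it gave 0 to 1, with 1 without VAS replicate 1 (beside 3.36%). The causes were not tested. Replicate numbers showed no clear pairing of the samples, although these values cannot exclude one. Over 36 pairs of same-numbered libraries the correlation of deviations from group means was -0.688 to 0.58, and 15 exceeded 0.1. Its median was 0.0469, against -0.0343 for pairs with different numbers. With a replicate block, 2 members were called in INT, beside 32.6% of all tested genes, and 4 in SVX, beside 40.2%. In SVX_VAS 3 were called (beside 37.2%, and Il1b was lost) and in VAS 4 (beside 39.4%). In comparisons with INT 0 were called, beside 0%.

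The uncalled logFC values that changed sign were these. Without VAS replicates 2 and 3, VAS against INT was -2.36 for Il1a, -0.0966 for Il1b, -0.647 for Il1r2, -0.233 for Il18, -0.0663 for Il10ra and -0.0324 for Il10rb, and with the filter in the other 17 libraries it was -2.37 for Il1a, -0.236 for Il18, -0.0706 for Il10ra and -0.0378 for Il10rb. Without INT replicate 1 and SVX_VAS replicate 2, Il33 was 0.132 in SVX and Il1a -1.32 in SVX_VAS against INT. With limma-voom, Il1r1 was 0.00603 in SVX and Il1a -0.527 in SVX_VAS against INT. Il1r1 in SVX against CONT was -0.0137 with a filter of 1 CPM and -0.00944 without a filter, and Il10rb in VAS against INT -0.00849 without a filter. With the replicate block, Il1r1 was -0.0107 in INT and -0.0362 in SVX against CONT, and Il1a -0.962 in SVX_VAS and -0.839 in VAS against INT. Leaving out 1 library at a time, the range against CONT was -0.205 to 0.195 for Il1r1 and -0.991 to 0.0192 for Il33 in INT, -0.0883 to 0.0827 for Il1r1 in SVX, and -0.0233 to 0.641 for Il33 in VAS. Against INT it was -0.173 to 0.220 for Il1r1, -0.639 to 0.150 for Il1r2 and -0.993 to 0.132 for Il33 in SVX. In SVX_VAS against INT it was -3.37 to 2.54 for Il1a, -0.445 to 0.283 for Il1r2 and -0.130 to 0.121 for Il18, and in VAS against INT -2.37 to 2.30 for Il1a, -0.0932 to 0.768 for Il1r2 and -0.0343 to 0.107 for Il10rb. Of the log2 ratios against INT, Il1rn to Il1b ranged from -0.555 to 0.00258 in SVX, Il1rn to Il1a from -0.0989 to 1.68 and Il10ra to Il10rb from -0.163 to 0.104 in SVX_VAS, and Il1rl1 to Il33 from -0.889 to 0.487 in VAS.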
